A study of Mus musculus with 6 samples.

Results

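The genes described here encode classical acute phase and complement proteins: C3, C4b, Cfb, Hp, Serpina3n, Saa3, Lcn2, Orm1, Fgb and Hpx. They were taken by name, as every probe set that the platform annotation lists for one of them, and they are 10 genes of a series in which 8251 named genes have a probe set. No probe set is listed for C3 in the annotation used here, so C3 was not analysed, and the other 9 genes have 14 probe sets. Both C4b probe sets are listed for C4a as well, and 1 of the 2 Orm1 probe sets is listed for Orm2 as well. Their values are therefore given as C4a/C4b and Orm1/Orm2.

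Pancreatic RNA of 6 male mice was hybridised to 1 oligonucleotide array each, 3 of genotype CFTR+/+ (control) and 3 of genotype CFTR-/- (called CF here). CFTR, mutated in cystic fibrosis, conducts chloride and bicarbonate across epithelia. Mice of both groups were gastrin+/-, 56 to 58 days old, on a background of 95% black6 and 5% 129Sv, and received the liquid diet Peptamen from day 10 of life against blockage of the gut. Each array reads total RNA of the pancreas of a single mouse, so fewer cells of a type and less RNA per cell cannot be told apart in any value below.

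The acute phase response is the change in plasma proteins that follows injury or infection. In the liver, interleukin-6 and its relatives act through the receptor chain gp130 and the factor STAT3, and interleukin-1 and tumour necrosis factor act through NF-kappaB and C/EBP factors, to induce different sets of these proteins. Many of the same genes are also active outside the liver, among them haptoglobin in fat, lipocalin 2 in injured epithelia and neutrophils, and complement genes in fibroblasts and macrophages. Complement is a cascade of plasma proteases in which C4 serves the classical and lectin routes and factor B the alternative route.

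Pancreatic acinar markers were the brightest of the lists read, among them the protease precursor gene Ctrb1 at 91687.0 to 135426.3 on the 6 arrays. Array medians were 207.8 to 234.4, and arrays of 1 group correlated at r = 0.865 to 0.920 across probe sets, which are not independent replicates. A Cftr probe set bright enough to test read 293 ± 61.6 in controls and 382 ± 78 in CF (intensity, mean ± SD, n = 3 per group), and 2 others lay under 47.6. Their place relative to the disrupted exon was not known here, and they do not check the labels. Control replicate 1, the array whose label alone speaks of the entire organ, had a summed adipocyte marker intensity of 22034, against 5315 to 11335 on the other 5 arrays. It also had the highest sums of macrophage (11740), fibroblast and stellate cell (23279), mesothelial (2211) and lymphocyte (12006) markers, so this was not particular to fat. The number of arrays limits the precision of every value.

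Promoter sequences are shown for 4 members whose first bases are in the RefSeq table used here: Lcn2, whose 2 probe sets gave different patterns, Saa3, which was above the filter on 1 array, Serpina3n, which was well above the dim range on all, and Fgb, which was in the dim range on all. Each runs from 250 bases before to 50 bases after a transcript start, 5′ to 3′, in assembly GRCm38.p6. Capitals mark matches on either strand to a C/EBP pattern, TTNNGNAA, or to the STAT consensus, TTCNNNGAA. The positions are chr2:32387690-32387989 (minus strand) for Lcn2, chr7:46715627-46715926 (minus strand) for Saa3, chr12:104406458-104406757 (plus strand) for Serpina3n and chr3:83049814-83050113 (minus strand) for Fgb.
Lcn2: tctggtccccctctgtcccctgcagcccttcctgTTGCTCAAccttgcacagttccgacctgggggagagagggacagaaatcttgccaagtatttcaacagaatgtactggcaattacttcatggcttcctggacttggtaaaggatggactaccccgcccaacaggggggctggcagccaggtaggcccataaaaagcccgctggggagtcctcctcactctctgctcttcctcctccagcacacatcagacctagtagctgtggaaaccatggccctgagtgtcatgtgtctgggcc
Saa3: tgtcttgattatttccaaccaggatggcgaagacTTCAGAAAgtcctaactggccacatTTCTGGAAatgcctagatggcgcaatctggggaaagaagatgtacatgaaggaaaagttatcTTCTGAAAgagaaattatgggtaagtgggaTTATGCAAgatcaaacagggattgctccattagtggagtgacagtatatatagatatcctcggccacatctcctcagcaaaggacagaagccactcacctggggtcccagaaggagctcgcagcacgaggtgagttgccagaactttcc
Serpina3n: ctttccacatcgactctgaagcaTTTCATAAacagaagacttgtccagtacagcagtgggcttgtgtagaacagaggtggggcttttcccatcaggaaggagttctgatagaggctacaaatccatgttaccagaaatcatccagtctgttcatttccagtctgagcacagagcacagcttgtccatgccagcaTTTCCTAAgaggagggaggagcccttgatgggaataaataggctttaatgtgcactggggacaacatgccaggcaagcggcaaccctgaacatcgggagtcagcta
Fgb: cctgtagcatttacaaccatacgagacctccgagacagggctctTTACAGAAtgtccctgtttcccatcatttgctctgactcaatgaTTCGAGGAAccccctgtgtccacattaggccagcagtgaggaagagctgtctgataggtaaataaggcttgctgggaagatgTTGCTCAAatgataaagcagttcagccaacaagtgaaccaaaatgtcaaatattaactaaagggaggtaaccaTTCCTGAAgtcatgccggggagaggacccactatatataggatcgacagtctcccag

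The table held promoters of 6 of the 10 genes, those above and those of C3 and Hpx. All 6 had the C/EBP letters, which 40.7% of the 32851 promoters in the table also had. Only Fgb, of these 6, had the STAT letters, 162 bases before its start, against 8.3% of all promoters. In Saa3 the C/EBP letters occurred 4 times and in Lcn2 once. These matches describe the letters and show no binding.

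The fitted differences of the 7 member probe sets tested, of 6 genes, did not share 1 sign. Differences of the tested member probe sets ran from -1.16 to 3.50 on the log2 scale, with C4a/C4b far above the rest, 2 above 0 and 5 below, where the median over all 7739 probe sets tested was 0.00. A probe set was tested where at least 3 of the 6 arrays exceeded 140.2, and values under 47.6 were set to 47.6 before log2 was taken. Of the 14 member probe sets, 7 passed, for C4a/C4b, both Cfb, Hp, Serpina3n, and 1 each of Lcn2 and Hpx. The other 7 are given as values. CF was compared with control in limma over all 7739 probe sets tested, with Benjamini-Hochberg adjustment. At an adjusted p under 0.05, 5 probe sets of the whole table were higher in CF (0.0646%) and 0 were lower (0%). Without CF replicate 3 the split was 4 higher and 4 lower. In the fit on all arrays 0 of the 7 member probe sets passed. With a block for the replicate number, limma called 10 probe sets of the table and again 0 members. At an unadjusted p under 0.05, limma had 3 of the 7 members and 571 probe sets of the table (7.38%). Of these 3, 1 Cfb set passed the filter only through the controls. Each difference below is CF minus control on the floored log2 scale, with its standard error.

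**Figure D1:**
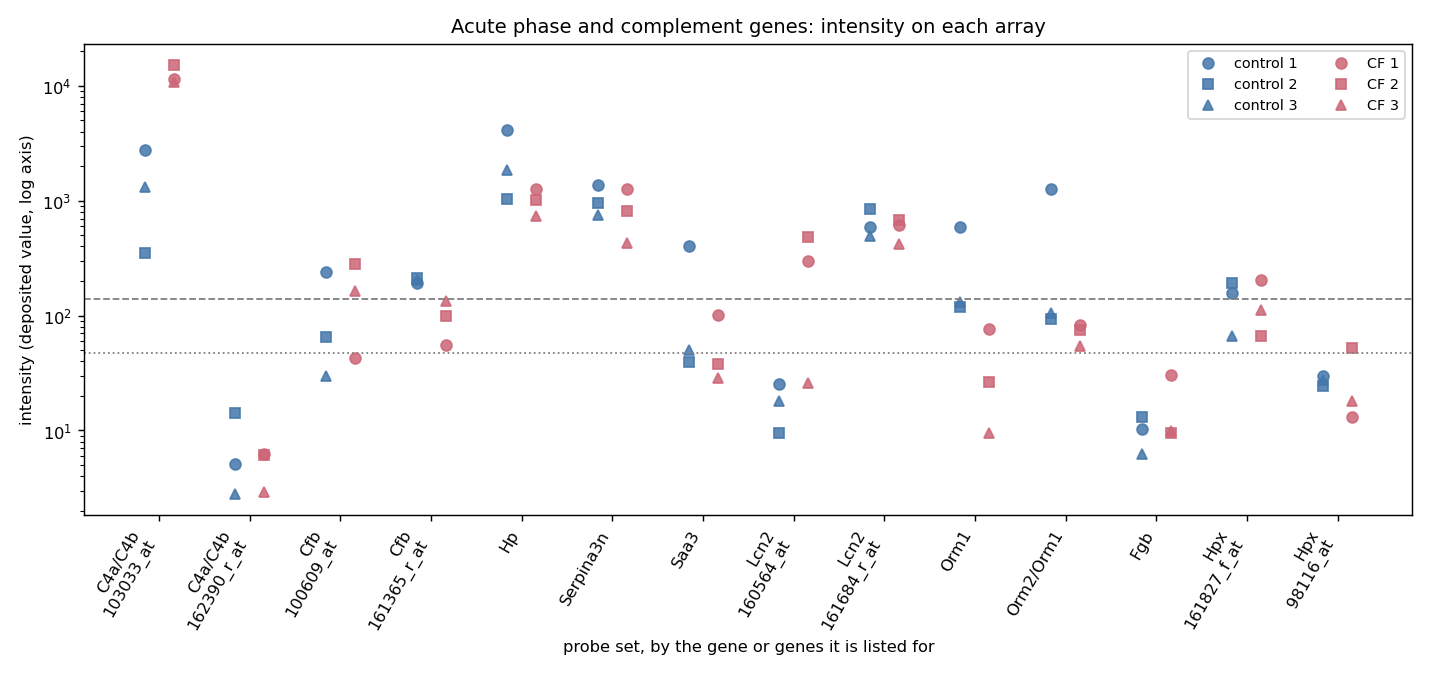
Intensity (log axis) of each of the 14 member probe sets on each array, controls in blue and CF in red, with a marker shape per replicate number. The dotted line is the floor at 47.6 and the dashed line the filter at 140.2. The 3 CF points of the bright C4a/C4b probe set sit between 10782.7 and 15069.3, all above the control points.

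The bright C4a/C4b probe set had the widest gap between the groups among the member probe sets tested. C4 is the complement protein that is cleaved by the C1s and MASP proteases and forms part of the C3 convertase; RefSeq lists C4a, its neighbour on chromosome 17, as a transcribed pseudogene in C57BL/6J. Its intensity was 2756.7, 351.5 and 1308.7 in controls 1, 2 and 3, and 11384.6, 15069.3 and 10782.7 in CF mice 1, 2 and 3. All CF values lay above all control values, and the controls spanned 7.84-fold where the CF arrays spanned 1.4-fold. Means were 1472 ± 1211 and 12412 ± 2321 (SD, n = 3 per group), an 11.3-fold ratio on the log scale (95% interval 4.33 to 29.7). The log2 difference of 3.50 ± 0.61 ranked 5 of the 7739 when counted from the most positive down, but its adjusted p of 0.11 in limma missed the threshold. By unadjusted p (0.00032) it ranked 20 in the table.

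Single arrays decided that call. In limma the C4a/C4b probe set passed without control replicate 1, at 4.18 (adjusted p = 0.042), and without control replicate 2, at 2.69 (adjusted p = 0.026). Its adjusted p ranged from 0.026 to 0.51 over all alternatives run. Control replicate 2, the lowest for C4, also had a Gapdh 3′ to 5′ signal ratio of 1.45, against 0.72 to 0.87 on the other 5 arrays, and the difference without it is the 2.69 above. The Actb ratio was also highest on control replicate 2, at 2.16, with 2.14 on CF replicate 2. It was 1.74 and 1.75 on control and CF replicate 1, and 1.93 and 1.94 on control and CF replicate 3. Between mice of the same replicate number the difference was 2.05, 5.42 and 3.04 for numbers 1, 2 and 3. The second C4a/C4b probe set read 2.8 to 14.1 on the 6 arrays, all under the floor, and gives no level for either group.

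Cfb encodes factor B, the serine protease of the alternative pathway convertase, and its 2 probe sets differed in opposite directions. The first read 239.8, 64.9 and 29.9 in controls and 42.6, 279.1 and 162.2 in CF. These groups overlapped (0.51 ± 0.85, adjusted p = 0.93 in limma), and the sign turned, to -0.04, without CF replicate 2. The second, of suffix _r, read 190.9, 213.2 and 202.6 in controls and 55.8, 99.4 and 133.3 in CF. Here every CF value lay below every control value, 2.23-fold lower on the log scale (-1.16 ± 0.48, unadjusted p = 0.04, adjusted p = 0.67 in limma). Both probe sets lay close to the filter on some arrays. The second passed it only through the controls, since no CF value exceeded 140.2, so it was tested only because the controls read high. In the platform's naming, the suffix _r marks sets for which probe selection rules were relaxed, and _f marks sets that may read a family of sequences.

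Counted over the members tested, 1 of 7 probe sets lay wholly above control in CF and 1 of 7 wholly below, against 7.37% and 5.62% of all probe sets tested. Among all 14 member probe sets, 2 lay wholly above and 3 wholly below, against 6.3% and 5.33% of the 12422 probe sets that are not array controls. The 3 below were that of Cfb and both of Orm1, and the 2 above were the bright C4a/C4b set and 1 of Lcn2, which cleared the controls by 0.5 intensity units on its lowest array. The Cfb set, the 1 of 7 wholly below, was tested only because its controls passed the filter.

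**Figure D2:**
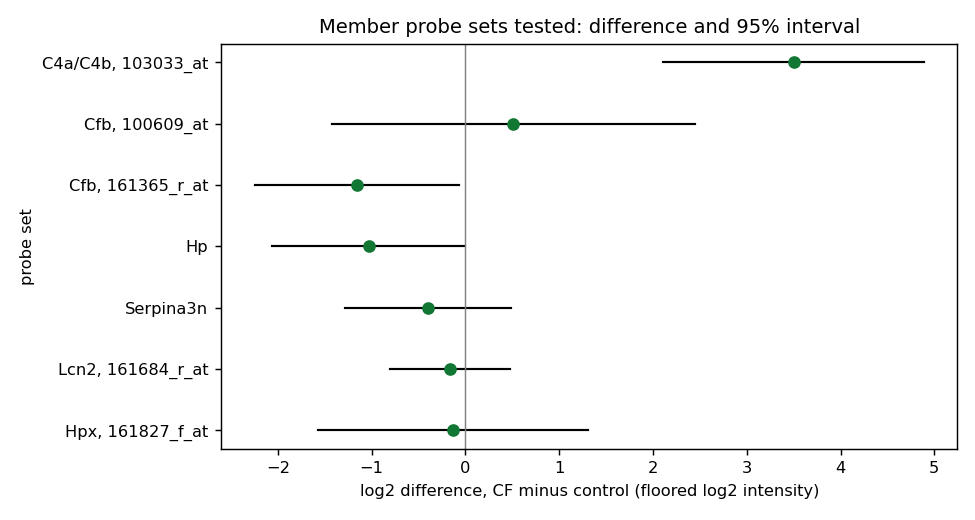
Log2 difference (x axis, CF minus control) of the 7 member probe sets that were tested, with bars for the 95% interval of limma's fit. The interval of C4a/C4b runs from 2.11 to 4.89, those of Hp and 1 Cfb probe set end just below 0, at -0.01 and -0.07, and the other 4 span 0.

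C4b and Cfb lie in the class III region of the major histocompatibility complex on chromosome 17. Of the 18 protein-coding genes that RefSeq places from C4b to Vars, the valyl-tRNA synthetase gene, 15 were tested under their own name, a choice of genes made after values were seen. In limma 0 of these 15 passed at an adjusted p under 0.05. Their median difference was 0.11, with 8 above 0 and 7 below. Vars itself (1.63 ± 0.24, adjusted p = 0.068) and its neighbour D17H6S56E-5 (2.36 ± 0.31, adjusted p = 0.052) lay wholly above control. In limma D17H6S56E-5 passed with the replicate block (adjusted p = 0.04) and without control replicate 2 (0.028), and Vars passed without control replicate 3 (0.016). Both missed the threshold without CF replicate 1, 2 or 3. Hspa1a, an inducible heat shock protein gene, lay wholly below (-1.59 ± 0.44, adjusted p = 0.37). C2, the factor B relative of the classical pathway that directly neighbours Cfb, had means of 520 ± 124 for controls and 460 ± 24.6 for CF (-0.15 ± 0.24, adjusted p = 0.92). Groups overlapped for Cyp21a1, the steroid 21-hydroxylase gene between C4b and C4a (-0.31 ± 0.22), and for Stk19, next to C4a (0.17 ± 0.42).

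Hp encodes haptoglobin, which binds free haemoglobin. It read 4165.8, 1033.3 and 1853.8 in controls and 1259.5, 1010.2 and 729.6 in CF. The groups overlapped, since control replicate 2 fell between CF replicates 1 and 2. Means were 2351 ± 1624 and 1000.0 ± 265, a ratio of 2.05 toward controls on the log scale (-1.03 ± 0.45, unadjusted p = 0.048, adjusted p = 0.67 in limma). Without control replicate 1 the difference was -0.50, and without control replicate 2 it was -1.51. Between mice of the same replicate number it was -1.73, -0.03 and -1.35.

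Orm1 encodes orosomucoid, an abundant plasma lipocalin that carries drugs and lipids. Its own probe set read 588.2, 118.6 and 131.6 in controls and 76.6, 26.2 and 9.5 in CF. The set shared with Orm2 read 1277.1, 94.3 and 104.7 in controls and 83.2, 74.3 and 54.9 in CF. On both, all CF values lay under all control values, and control replicate 1 stood far above the other 5 arrays. Neither passed the filter, and CF replicates 2 and 3 of the first were under the floor. Fitted by limma with no filter, the differences were -1.91 ± 0.71 (unadjusted p = 0.045, adjusted p = 0.80) and -1.74 ± 1.13 (adjusted p = 0.86). The related Orm3 was not below control in CF, with means of 236 ± 102 for controls and 347 ± 58.9 for CF (difference 0.64 ± 0.38, adjusted p = 0.76), and the Orm2 probe set read 16.7 to 62.8.

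Saa3, a serum amyloid A gene that macrophages and fat cells can express, was dim on all arrays but 1. It read 404.4, 39.5 and 49.8 in controls and 101.8, 37.6 and 28.6 in CF. Control replicate 1 was again the highest, CF replicate 1 came next, and the other 4 were near or below the floor. The groups overlapped (-0.69 ± 0.98 with no filter, adjusted p = 0.94 in limma). The liver-type relative Saa2 differed by 0.02 ± 0.52 on its brighter probe set and by 0.01 ± 0.41 on the other.

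Control replicate 1 was thus the highest of the 6 arrays for Hp, Saa3 and both Orm1 probe sets. It was also the highest for Serpina3n, by a smaller margin (1369.9, with 1255.4 on CF replicate 1). The sum over 14 adipocyte markers was 22034, 6817 and 11335 in controls and 7681, 5343 and 5315 in CF, and the 6 arrays had the same order in it as in Hp. The macrophage sum had that order as well (11740, 7050 and 7907 for controls, 7203, 6290 and 5922 for CF mice). The fibroblast and lymphocyte sums had it too, except that CF replicates 2 and 3 changed places. Of 10 adipocyte markers tested, 9 differed below 0 (median -0.96, and -0.54 without control replicate 1) and 0 passed in limma. None of the 14 markers lay under the floor on all arrays. Fat is a known site of Hp and Saa3 expression. The part of fat, macrophages, fibroblasts or lymphocytes in the Hp, Orm1 and Saa3 values was not tested.

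**Figure D3:**
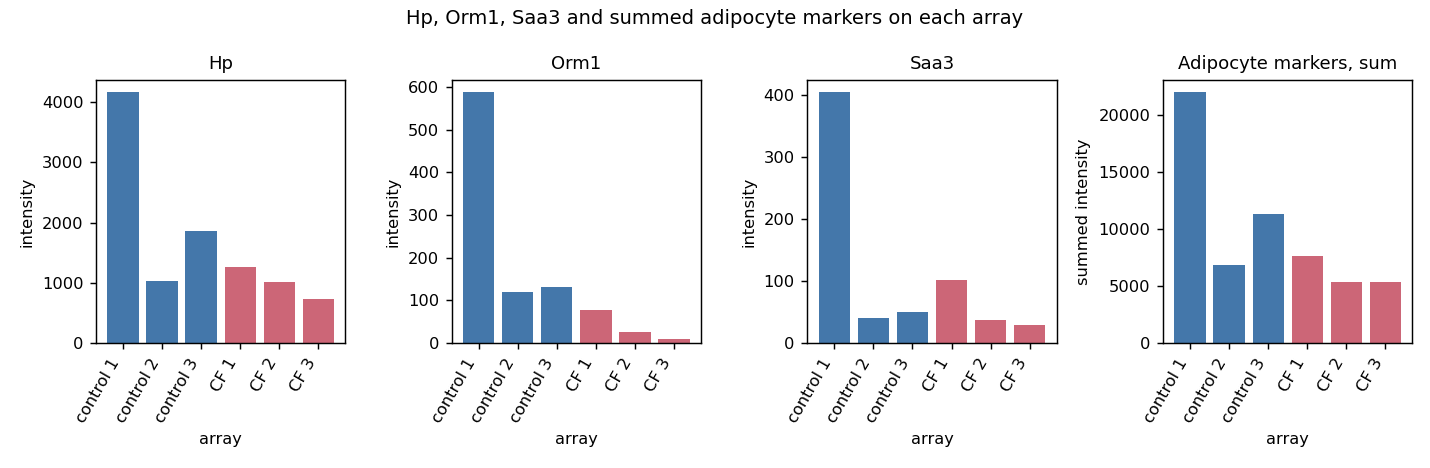
Intensity of Hp, Orm1 (its own probe set) and Saa3, and the summed intensity of 14 adipocyte markers (last panel), with 1 bar per array, controls in blue and CF in red. Control replicate 1 is the tallest bar in every panel, at 4165.8, 588.2, 404.4 and 22034.

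Other cell types that can express the members were read from marker lists. Summed intensities of 14 macrophage markers were 7050 to 11740 in controls and 5922 to 7203 in CF, and of 14 fibroblast and stellate cell markers 17802 to 23279 and 14219 to 18185. Those of 14 neutrophil markers, a list that holds Lcn2, were 8022 to 12703 and 7911 to 9168. Mesothelial markers, 4 in all, summed to 1967 to 2211 in controls and 1506 to 1626 in CF, and 11 lymphocyte markers to 6565 to 12006 and 3757 to 7818. Duct markers, 9 in all, summed to 14710 to 19919 in controls and 18641 to 22763 in CF. Single bright genes weigh on some sums, with Csf3r at 71% of the neutrophil, Upk3b at 59.5% of the mesothelial and Muc1 at 53% of the duct sum. In limma 0 markers of these lists passed, and 0 lay under the floor on all arrays. Median differences were -0.77 for macrophages, -0.49 for fibroblasts, -0.17 for neutrophils, -0.52 for mesothelium, -0.61 for lymphocytes and 0.37 for duct cells. Without control replicate 1 the macrophage median was -0.23, and without CF replicate 2 it was -0.50. The neutrophil median turned to 0.05 without control replicate 2 and to 0.01 without CF replicate 3, and the mesothelial median was -0.31 without CF replicate 3. The C4a/C4b probe set read higher in CF while the macrophage and fibroblast medians lay below 0, and the part of these cells in any member's value was not tested.

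Hepatocytes, the main source of most of these proteins in the body, were read from 18 markers. Their summed intensity was 5022 to 7149 in controls and 6320 to 9133 in CF, and of 11 tested 0 passed, with 4 above and 7 below 0 (median -0.17). This median turned to 0.14 with array weights, 0.05 without control replicate 2 and 0.08 without CF replicate 3. Serpina1c, an alpha-1-antitrypsin gene, read 1032 ± 142 and 2160 ± 261 (1.07 ± 0.18, adjusted p = 0.11), and Kng1, the kininogen gene, 500 ± 105 and 1369 ± 463 (1.41 ± 0.29, adjusted p = 0.19). Both are among the brightest of the 18, with Serpina1c at 22.4% of the sum, so the sum need not follow the other markers. Cyp2e1, also among the brightest, differed by -0.60 ± 0.46, and the transthyretin gene Ttr lay wholly below control (-0.54 ± 0.26). Alb, the gene of the main plasma protein albumin, read 462.4 to 650.4 in controls and 337.5 to 541.1 in CF.

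Serpina3n encodes a serine protease inhibitor related to human alpha-1-antichymotrypsin. It read 1369.9, 960.6 and 758.4 in controls and 1255.4, 819.7 and 426.3 in CF. The groups overlapped widely, although each CF mouse read lower than the control of its own number, at -0.13, -0.23 and -0.83 on the log2 scale. The fitted ratio of CF to control was 0.76 (95% interval 0.412 to 1.4; log2 difference -0.40 ± 0.39, adjusted p = 0.88 in limma). Without CF replicate 3 the log2 difference was 0.02.

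Lcn2 encodes lipocalin 2, which binds bacterial siderophores and so withholds iron. Its dimmer probe set read 25.6, 9.5 and 18.0 in controls and 295.9, 485.7 and 26.1 in CF. CF replicates 1 and 2 stood above the filter, while CF replicate 3 and all controls were under the floor, so the set was not in the test. With no filter the limma difference was 2.00 (unadjusted p = 0.084, adjusted p = 0.84), a value fixed by the floor, since all 3 controls were set to it.

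The brighter Lcn2 probe set, of suffix _r, did not show this pattern. It read 593.1, 853.0 and 494.6 in controls and 614.3, 685.6 and 421.4 in CF, a ratio of 0.892 (95% interval 0.57 to 1.4; log2 difference -0.17 ± 0.28, adjusted p = 0.94 in limma). Control replicate 2 was its highest array, and the groups overlapped throughout. Slc22a17, a cell surface receptor for lipocalin 2, read 321 ± 153 in controls and 622 ± 137 in CF, with no overlap (1.07 ± 0.41, adjusted p = 0.62).

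Fgb and Hpx encode the fibrinogen beta chain and the haem carrier hemopexin, and no array read above 203.4 for either. The Fgb intensities were 10.4, 13.2 and 6.2 for controls and 30.6, 9.5 and 9.8 for CF mice. None reached 47.6, so no difference was measurable. The Hpx probe set of suffix _f read 155.9, 192.3 and 66.0 in controls and 203.4, 65.9 and 112.1 in CF, with wide overlap (-0.13 ± 0.63, adjusted p = 0.98 in limma). The other Hpx set read 13.0 to 52.6, with 5 of 6 arrays under the floor.

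Lists of related genes, chosen with earlier results of these data known, give the surroundings of the members. The lists share some genes and their counts are not separate. Lifr is in the acute phase and the inducer list, and Serping1 in the acute phase and the complement regulator list. The cell marker lists share genes as well. Cd14 is in the acute phase and the macrophage list, and Krt19 in the duct and the mesothelial list. Alb, Ttr and Apoa2 are in the negative acute phase and the hepatocyte list. Of 17 other positive acute phase genes tested, 1 rose, 0 fell and 16 did not pass; 13 differed above 0 (median 0.43). The 1 that rose was Serpina10, an inhibitor of coagulation proteases (1.43 ± 0.17, adjusted p = 0.023 in limma; 615.6 to 721.5 in controls and 1759.9 to 1784.0 in CF). Its adjusted p was 0.026 without control replicate 2, but 0.063 to 0.18 without any other single array, 0.098 with no filter and 0.082 with no intensity trend. Lrg1, a secreted leucine-rich glycoprotein, read 63.9 to 985.1 in controls and 12378.1 to 32910.6 in CF (6.02 ± 0.87, adjusted p = 0.068 in limma); it passed without control replicate 1 (6.83, adjusted p = 0.042) and without control replicate 2 (4.85, adjusted p = 0.0064). Itih4, an inter-alpha-trypsin inhibitor heavy chain, differed by 1.79 ± 0.27 (adjusted p = 0.077). Cp encodes the copper carrier ceruloplasmin and read 46.4, 19.7 and 37.9 in controls, under the floor, and 630.7, 597.9 and 160.0 in CF. With all controls set to the floor its difference of 3.04 (adjusted p = 0.16) is fixed by that floor, and was 3.50 with the floor at the 10th percentile and 1.48 at the 40th. Among these 17 genes, 8 lay wholly above control and 1 wholly below, against 7.37% and 5.62% in the table. Cp is among the 8 and passed the filter only through its CF values.

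None of the other complement genes passed. Of 11 components tested, 0 passed in limma and 0 had an unadjusted p under 0.05, with 4 above and 7 below 0 (median -0.17; 6 above, 5 below and 0.04 without CF replicate 3). C1qa, a chain of the C1q recognition protein, read 2273.4, 394.2 and 936.0 in controls and 544.7, 328.6 and 576.3 in CF (-1.01 ± 0.55, adjusted p = 0.74). C1qb differed by 0.21 ± 0.15, C1qc by -0.40 ± 0.30 and C9, of the membrane attack complex, by 0.72 ± 0.47. Among 9 regulators and receptors, 0 passed in limma and 2 had an unadjusted p under 0.05. Their median of -0.04 was 0.26 without CF replicate 3 and 0.08 without control replicate 1, and -0.31 without CF replicate 1. The 2 genes were Serping1, the C1 inhibitor, which read 1991.4, 1046.1 and 1093.2 against 901.7, 644.4 and 611.8 (-0.89 ± 0.29, adjusted p = 0.51), and Clu, for clusterin (0.38 ± 0.16, adjusted p = 0.67). Vtn, for vitronectin, and the complement regulator Cr1l differed by -0.44 ± 0.23 and 0.83 ± 0.46.

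Of 19 inducers and signalling genes of the acute phase response, 17 differed above 0 (median 0.41) and 0 passed in limma, while 6 had an unadjusted p under 0.05. Socs3, a STAT3 target that inhibits gp130 signalling, read 129.0, 54.5 and 201.0 in controls and 491.0, 348.2 and 467.6 in CF (1.94 ± 0.49, adjusted p = 0.30). Cebpd, a C/EBP factor, read 600 ± 235 and 1067 ± 265 (0.89 ± 0.34, adjusted p = 0.63). Lifr, the receptor for leukaemia inhibitory factor, differed by 0.56 ± 0.18 and the phosphatase gene Ptpn2 by 1.05 ± 0.39. In all, 7 of the 19 lay wholly above control and 0 below, against 7.37% and 5.62% in the table, and the 6 stand against 7.38%. Ptpn2 is among both the 7 and the 6. It passed the filter only through its CF values, since no control exceeded 140.2, so it was tested only because CF read high. The probe sets of Il6, Il1b, Il11 and Ptpn11, a broadly expressed phosphatase gene, lay under the floor on all arrays, which need not mean an absent transcript. With single arrays left out, 14 to 17 of the 19 lay above 0.

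The 2 remaining lists held 0 genes past the threshold in limma. Of 6 negative acute phase and transport genes, 2 differed above 0 and 4 below (median -0.22, lowest adjusted p = 0.70), led by Ttr, for transthyretin (-0.54 ± 0.26), with 0 at an unadjusted p under 0.05. Of 5 clearance receptors and partners, 1 differed above 0 and 4 below (median -0.14, and 0.05 without CF replicate 3, lowest adjusted p = 0.62), with 2 at an unadjusted p under 0.05. These were Slc22a17 and Lrp1, a receptor for hemopexin complexes (-0.53 ± 0.23).

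**Figure D4:**
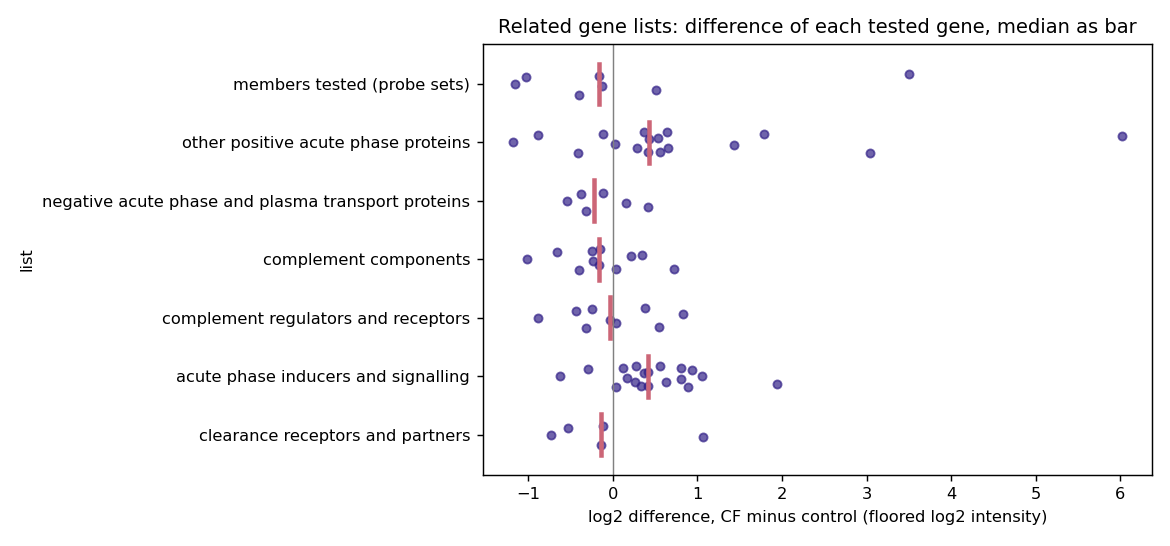
Log2 difference (x axis, CF minus control) of every tested member probe set (top row) and of every tested gene of 6 related lists, with a bar at the median. The largest points are C4a/C4b at 3.50 among the members and Lrg1 at 6.02 among the other positive acute phase genes, and medians run from -0.22 to 0.43.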

How the data were processed

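The deposited table gives linear intensities of 12488 probe sets on each array. RNA was extracted with TRIzol, per the labels; software and scaling: not given in the sources used here. Trimmed means of 500.27 to 500.30, without 2% of the values at each end, showed that the arrays had been scaled, and they were kept so. The groups come from the genotype in the labels and replicate numbers from the title suffix. Each array held 1 mouse.

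Probe sets were named from the platform annotation, with 10839 matched by gene identifier to RefSeq (GRCm38.p6). Sets listed for several genes were named only where they list a member. Values under the 20th percentile (47.6) were set to it, and the 66 control probe sets left out. A set was tested if 3 arrays exceeded the 40th percentile (140.2). limma 3.58.1 (R 4.3.3) used lmFit and eBayes with an intensity trend, adjusted over all 7739 sets tested. The members, lists and rules were chosen with earlier results of these data known. The rule named all member probe sets, up to 4 genes of smallest p per pathway list, paralogs and Cftr. The neighbours from C4b to Vars and the marker genes named with values were picked after values were seen. Each list used the brightest tested probe set of a gene.

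Deviations from the group means correlated at 0.231, 0.264 and 0.259 between arrays of 1 suffix and at -0.179 to -0.0479 between others, so mice of 1 suffix were treated as pairs in the blocked fit. Deviations cancel within a group, so the negative values follow in part from the positive. Differences and standard errors in the text are from the fit without the block unless a setting is named. With the block the standard error was 0.32 for Hp (0.45 without), 0.20 for Serpina3n (0.39) and 0.94 for the first Cfb set (0.85). The fit was tested on simulated data, with normal noise of each probe set's own spread. It recovered 27.5% of log2 differences of 1, 64.2% of 2 and 91.2% of 4, so most differences of 1 were missed there. Alternatives covered scaling, floor, filter, variance model, array weights, the block and each array left out.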

Additional observations from a re-analysis of the deposited data

How the results depend on the processing

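The number of member probe sets called by limma was 0 under all 11 alternatives of scaling, floor, filter, variance model, array weights and the replicate block, and 0 to 1 when single arrays were left out, the 1 being C4a/C4b without control replicate 1 or 2. In these fits 1 to 3 members had an unadjusted p under 0.05. The C4a/C4b difference stayed above 0 in all 17 alternatives, at 2.69 to 4.18 (adjusted p 0.026 to 0.51), with 0.17 under the replicate block. Over the whole table limma called 5 probe sets, 8 with median scaling, 10 with the floor at the 40th percentile, 3 with no intensity trend, 12 with array weights, 10 with the replicate block and 1 to 11 without single arrays. These were higher in CF except for 2 of 12 with array weights, 1 of 11 without control replicate 2 and 4 of 8 without CF replicate 3. With no filter it called 0, where 773 had an unadjusted p under 0.05. Hp stayed below 0 in all 17 alternatives (-1.51 to -0.50), and the lower Cfb probe set in all 16 that tested it (-1.44 to -0.53). Signs turned for Hpx with array weights (0.01), and, over single arrays left out, for Hpx (-0.60 to 0.27), the brighter Lcn2 set (-0.34 to 0.05), Serpina3n (-0.76 to 0.02) and the other Cfb set (-0.04 to 1.23). The causes were not tested. Besides the count over the table, the replicate block changed the call of D17H6S56E-5, near C4 (adjusted p 0.052 without and 0.04 with it), and no other call of the members or the lists. Among related genes, Lrg1 also passed with array weights (adjusted p 0.028), the floor at the 40th percentile (0.014), median scaling (0.044) and log2(value + 50) (0.033), and Itih4 with array weights (0.042). D17H6S56E-5 also passed with median scaling (0.044), the floor at the 40th percentile (0.045), log2(value + 50) (0.042), the filter at the 60th percentile (0.038) and array weights (0.021), and Vars with the floor at the 40th percentile (0.047). These fits of single related genes were added after seeing the data. Of the members, 7 probe sets were too dim for the filter, and 6 of these were under the floor on 2 or more arrays, where fitted differences depend on the floor.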

Other observations

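Between mice of the same replicate number, the 2 Orm1 probe sets had the same sign in all 3 pairs, at -2.94, -1.32 and -1.47 on the log2 scale for the set of Orm1 alone, the last 2 with the CF mouse under the floor, and at -3.94, -0.34 and -0.93 for the set shared with Orm2. The lower Cfb set was also below 0 in all 3 pairs, at -1.77, -1.10 and -0.60. The other Cfb set was not, at -2.33, 2.10 and 1.77, the first and last with 1 mouse under the floor, nor was Hpx, at 0.38, -1.55 and 0.76. The dimmer Lcn2 set was at 2.64, 3.35 and 0.00, with the control mouse under the floor in every pair and the CF mouse in the last, so that the floor fixes these values. These are values with no test of their own.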
